A study of Mus musculus with 40 samples.

Results

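The Trav13 segments of subgroups 1 to 3 were followed through 4 libraries of T-cell receptor alpha (Tcra) joins from mouse thymus. The 9 members were chosen by a rule on names, set with earlier results of these data known. They are the D copies Trav13d-1, Trav13d-2 and Trav13d-3, the N copies Trav13n-1, Trav13n-2 and Trav13n-3, and the originals Trav13-1, Trav13-2 and Trav13-3. All 9 were listed in each library, among 105 Trav segments listed in all 4 libraries and 111 V segments listed in any. The mice were EACBE-/- or EACBE+/+, and the labels call the second genotype wild type. EACBE is a site bound by CTCF, which takes part in folding chromatin into loops, and it lies at Ea, the enhancer of the Tcra locus. Both genotypes were C57BL/6 mice aged 4 to 8 weeks, the source was thymocytes with no sort given for these libraries, and each genotype had 2 libraries. The labels do not say how many mice gave a library or whether replicates came from separate mice, so p-values measure only the spread between these libraries, which may be technical. The tables hold receptor segments alone, so neither the cell type nor the deletion could be checked in them.

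A Tcra gene is made when a Trav (variable) segment is joined to a Traj (joining) segment. The first joins on an allele mostly use Trav segments near the Traj array and Traj segments at its 5′ end, and later joins on the same allele move to Trav segments farther upstream and to Traj segments nearer the 3′ end. The Trav segment carries the first and second loops with which the receptor touches its ligand, so members of a subgroup that differ little in sequence give similar receptors. In C57BL/6 mice the middle of the Trav array is repeated, and the letters d and n in a symbol mark the repeated copies of a segment.

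In the GRCm38.p6 annotation from RefSeq, all 9 members lie on chromosome 14 with the D copies farthest from the Traj array, the N copies between and the originals nearest. Trav13d-1 (chr14:52851355-52851866), Trav13d-2 (chr14:52942764-52943289) and Trav13d-3 (chr14:53032902-53033419) stand at places 20, 28 and 36 of the 105 segments in array order. Trav13n-1 (chr14:53162399-53162910), Trav13n-2 (chr14:53253792-53254317) and Trav13n-3 (chr14:53337122-53337639) stand at places 47, 54 and 63. Trav13-1 (chr14:53545014-53545525), Trav13-2 (chr14:53634888-53635399) and Trav13-3 (chr14:53729558-53730074) stand at places 82, 89 and 98. The distance to Traj58, the first Traj segment in the tables, shrinks along this order to 427 kb for Trav13-3, against 1305 kb for Trav13d-1. The annotated genes span 512 bases for the 3 copies of subgroup 1. In subgroup 2 the D and N copies span 526 bases and the original 512, and in subgroup 3 they span 518 and the original 517.

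Library depth differed far more between replicate numbers than between genotypes. The EACBE-/- libraries held 19085 and 163953 counts in replicates 1 and 2, and the wild-type libraries 10694 and 172388. Trav13 joins made up 1875 and 19736 of the EACBE-/- counts and 962 and 19137 of the wild-type counts. With 9 members and 43 listed Traj segments there are 387 possible pairs, of which 301 and 384 had a count in EACBE-/- libraries and 267 and 386 in wild-type libraries. The sources do not say if counts are of reads or of distinct receptors. Intervals below are 95% Wilson intervals and cover counting error only. A two-sided exact permutation test of 2 libraries against 2 cannot give a p below 0.333, and no difference of a single value tested in that way could pass 0.05.

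The share of Trav13 joins among all Tcra counts overlapped between the genotypes. It was 9.82% (9.41 to 10.3%) and 12.04% (11.9 to 12.2%) in EACBE-/- replicates 1 and 2, against 8.996% (8.47 to 9.55%) and 11.1% (11.0 to 11.3%) in wild-type replicates 1 and 2. The means were 10.9% ± 1.56 in EACBE-/- and 10.0% ± 1.49 in wild type (SD, n = 2 each), a difference of 0.883 percentage points (exact permutation p = 0.667). Within each replicate number the EACBE-/- share was the higher. The sign of the mean difference changed with single libraries, to -0.224 points without EACBE-/- replicate 2 and -0.170 points without wild-type replicate 1. Each of these sets leaves the replicate numbers unequal between genotypes, and replicate 2 had the higher share in both. In RNA from whole samples, fewer cells carrying a join and less receptor RNA per cell cannot be told apart.

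Among the D copies, Trav13d-1 took 1.70% and 1.46% of Tcra counts in EACBE-/- replicates 1 and 2 and 1.09% and 0.712% in wild type. Both EACBE-/- libraries were above both wild-type libraries for this segment. Trav13d-2 took 1.41% and 2.00% in EACBE-/-, against 1.62% and 2.63% in wild type, and Trav13d-3 took 0.272% and 0.567% in EACBE-/- and 0.243% and 1.14% in wild type. For both of these, the deeper replicate 2 was higher than replicate 1 in each genotype and the genotypes overlapped. Summed, the D copies took 3.38% and 4.03% of EACBE-/- counts and 2.95% and 4.49% of wild-type counts.

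Summed, the N copies were the least used. Trav13n-1 took 1.09% and 1.59% of Tcra counts in EACBE-/- replicates 1 and 2 and 0.739% and 1.40% in wild type. Trav13n-2 took 0.236% and 0.318% in EACBE-/- and 0.252% and 0.488% in wild type. Trav13n-3 took 0.215% and 0.155% in EACBE-/- and 0.458% and 0.158% in wild type. The genotypes overlapped for each N copy, and the 0.458% of Trav13n-3 in wild-type replicate 1 rests on 49 counts. Their sum was 1.54% and 2.07% in EACBE-/- and 1.45% and 2.05% in wild type.

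As a sum the originals were the most used. Trav13-1 had rank 3 of the 105 Trav segments in both EACBE-/- libraries and ranks 4 and 2 in wild-type replicates 1 and 2. The originals Trav13-2 and Trav13-3 ranked below Trav13d-2 in every library. Trav13-1 took 3.55% and 4.40% of Tcra counts in EACBE-/- and 2.84% and 3.37% in wild type, with no overlap. Trav13-2 took 1.02% and 1.20% in EACBE-/- and 1.11% and 0.794% in wild type, which overlapped. Trav13-3 took 0.341% and 0.339% in EACBE-/- and 0.636% and 0.403% in wild type, with both EACBE-/- libraries below both wild-type ones. The originals together took 4.90% and 5.94% of EACBE-/- counts and 4.59% and 4.56% of wild-type counts, a difference of 0.843 points (exact permutation p = 0.333, n = 2 each).

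**Figure D1:**
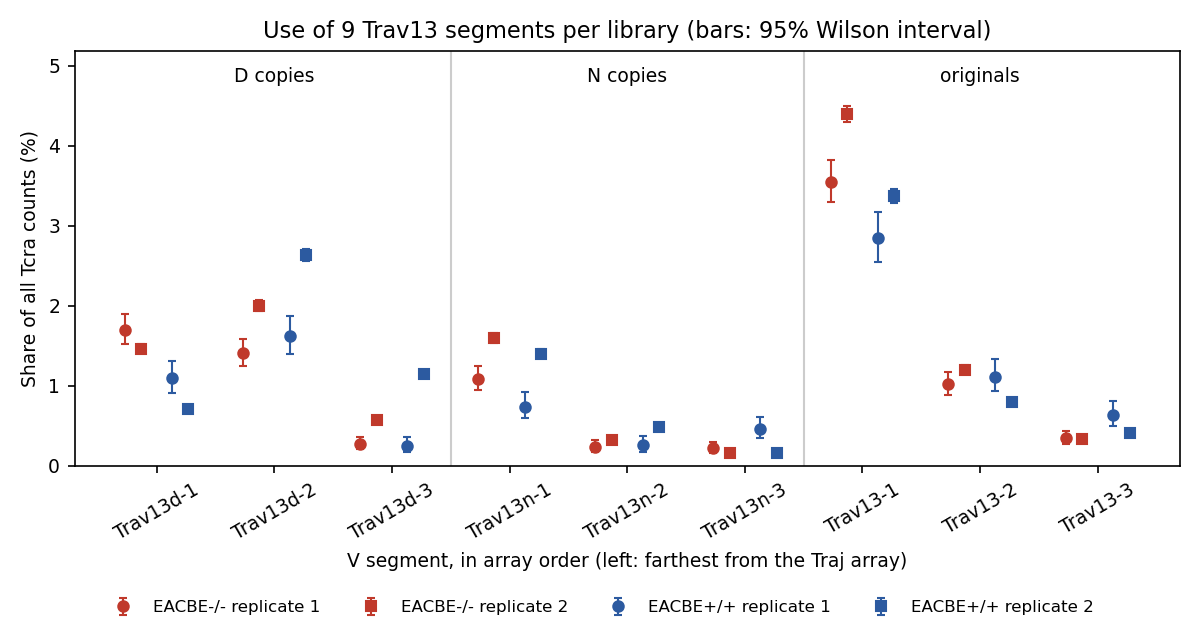
Share of all Tcra counts (percent, y axis) of each of the 9 Trav13 segments (x axis, in array order), with 1 point per library, EACBE-/- in red and EACBE+/+ in blue, circles for replicate 1 and squares for replicate 2, and 95% Wilson intervals as bars. Trav13-1 stands highest in every library, at 3.55% and 4.40% in EACBE-/- and 2.84% and 3.37% in wild type.

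Of these 9 members, Trav13d-1, Trav13-1 and Trav13-3 showed no overlap of libraries, which is 3 of 9 where 49.5% of all 105 Trav segments did the same. None of the 9 passed the test of use across the Trav array (edgeR quasi-likelihood, adjusted p below 0.05), where 6 of 105 segments, or 5.71%, were called. DESeq2 called 0 of the 9 as well. On simulated counts the edgeR test of segments recovered 0% of 11 changes of 2-fold and 30% of 10 changes of 4-fold, so a member not called may still have changed. Trav13d-1 was the 1 member under 0.05 before adjustment, with a log2 change of 0.82 ± 0.34 (SE, edgeR adjusted p = 0.285). The median log2 change was -0.32 over the 9 members and -0.12 over all 105 segments.

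Reads of near-identical copies may be split between them by the segment caller, which is not given, and the copies of each subgroup were therefore also summed. Subgroup 1 took 6.33% and 7.46% of Tcra counts in EACBE-/- replicates 1 and 2 and 4.68% and 5.48% in wild type. Subgroup 3 took 0.828% and 1.06% in EACBE-/- and 1.34% and 1.70% in wild type. Subgroup 1 was thus higher and subgroup 3 lower in both EACBE-/- libraries than in both wild-type libraries, while subgroup 2, at 2.66% and 3.52% in EACBE-/- and 2.98% and 3.92% in wild type, overlapped. That is 2 of 3 without overlap, where 65.2% of all 46 subgroups did the same. None of the 3 passed the edgeR test, in which 26.1% of subgroups were called. The log2 change was 0.44 ± 0.21 for subgroup 1 (adjusted p = 0.197), -0.16 ± 0.23 for subgroup 2 (adjusted p = 0.603) and -0.69 ± 0.21 for subgroup 3 (adjusted p = 0.0840). Subgroup 3 was the 1 of them under 0.05 before adjustment. DESeq2 called subgroup 1 as higher, with a log2 change of 0.60 (adjusted p = 0.0319). Read within the family, subgroup 1 supplied 64.5% and 61.9% of Trav13 joins in EACBE-/-, against 52.0% and 49.4% in wild type, and subgroup 3 supplied 8.43% and 8.81% in EACBE-/- and 14.9% and 15.4% in wild type.

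The Traj partners were read in 3 lists along the array, which were also set with earlier results of these data known. The 5′ list holds the 13 listed segments of Traj61 to Traj42, the middle list the 16 of Traj41 to Traj22 and the 3′ list the 14 of Traj21 to Traj1. The 5 partners with the highest mean share of Trav13 joins over the 4 libraries were Traj31, Traj42, Traj37, Traj49 and Traj22. Traj31 took 4.21% and 4.45% of Trav13 joins in EACBE-/- replicates 1 and 2 and 5.41% and 4.65% in wild type. Traj42 took 5.12% and 3.86% in EACBE-/-, against 4.05% and 3.65% in wild type, and Traj37 took 3.84% and 3.96% in EACBE-/- and 4.68% and 4.02% in wild type. Traj31 and Traj37, both of the middle list, were lower in both EACBE-/- libraries, and Traj42 overlapped. Traj49, of the 5′ list, took 3.84% and 4.67% in EACBE-/- and 3.22% and 3.49% in wild type, higher in both EACBE-/- libraries. Traj22, at the 3′ edge of the middle list, took 3.68% and 2.77% in EACBE-/- and 5.09% and 3.20% in wild type, which overlapped.

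Trav13 joins used the 3′ list less and the 5′ list more in both EACBE-/- libraries than in both wild-type ones. The 3′ list took 15.1% (13.5 to 16.8%) and 17.4% (16.8 to 17.9%) of Trav13 joins in EACBE-/- replicates 1 and 2, against 24.9% (22.3 to 27.8%) and 30.8% (30.2 to 31.5%) in wild type. The intervals of the genotypes did not meet. The means were 16.2% ± 1.61 in EACBE-/- and 27.9% ± 4.16 in wild type (SD, n = 2 each), a difference of -11.7 points, or 1.72-fold lower (exact permutation p = 0.333). The 5′ list took 37.5% and 39.8% in EACBE-/- and 27.3% and 30.4% in wild type, 9.81 points higher on the mean (exact permutation p = 0.333, n = 2 each). The middle list took 47.4% and 42.9% in EACBE-/- and 47.7% and 38.8% in wild type, with overlap.

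By single Traj segment, 11 of the 14 in the 3′ list had a lower share of Trav13 joins in both EACBE-/- libraries than in both wild-type libraries, and 8 of the 13 in the 5′ list had a higher one. The joins of all other Trav segments gave 78.6% of the 3′ list lower without overlap and 76.9% of the 5′ list higher without overlap, so the family's counts stood near or below that level. Within the 3′ list the mean differences were widest at Traj4 and Traj2. They were not wide along the whole 3′ end, with -0.24 points at Traj7 and -0.32 points at Traj5. Traj4 took 0.693% and 0.796% of Trav13 joins in EACBE-/- and 2.49% and 3.56% in wild type. Traj2, the last listed segment, took 0.427% and 0.370% in EACBE-/- and 1.14% and 2.72% in wild type. Traj21, at the 5′ edge of the list, took 2.61% and 2.69% in EACBE-/- and 3.43% and 2.59% in wild type, which overlapped.

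The rest of the array had 3′ shares close to those of Trav13. All other Trav segments joined the 3′ list in 14.5% and 17.1% of counts in EACBE-/- replicates 1 and 2 and in 23.9% and 30.1% in wild type. The family stood above them by 0.549 and 0.265 points in EACBE-/- and by 1.08 and 0.758 points in wild type. This excess was above 0 in 4 of 4 libraries (two-sided exact sign-flip test over libraries, p = 0.125, the smallest that 4 libraries allow), and it was 0.511 points smaller in EACBE-/- (exact permutation p = 0.333, n = 2 each). With each V-J pair counted once the genotype difference was 1.78 points in the other direction, so no direction is given for it.

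**Figure D2:**
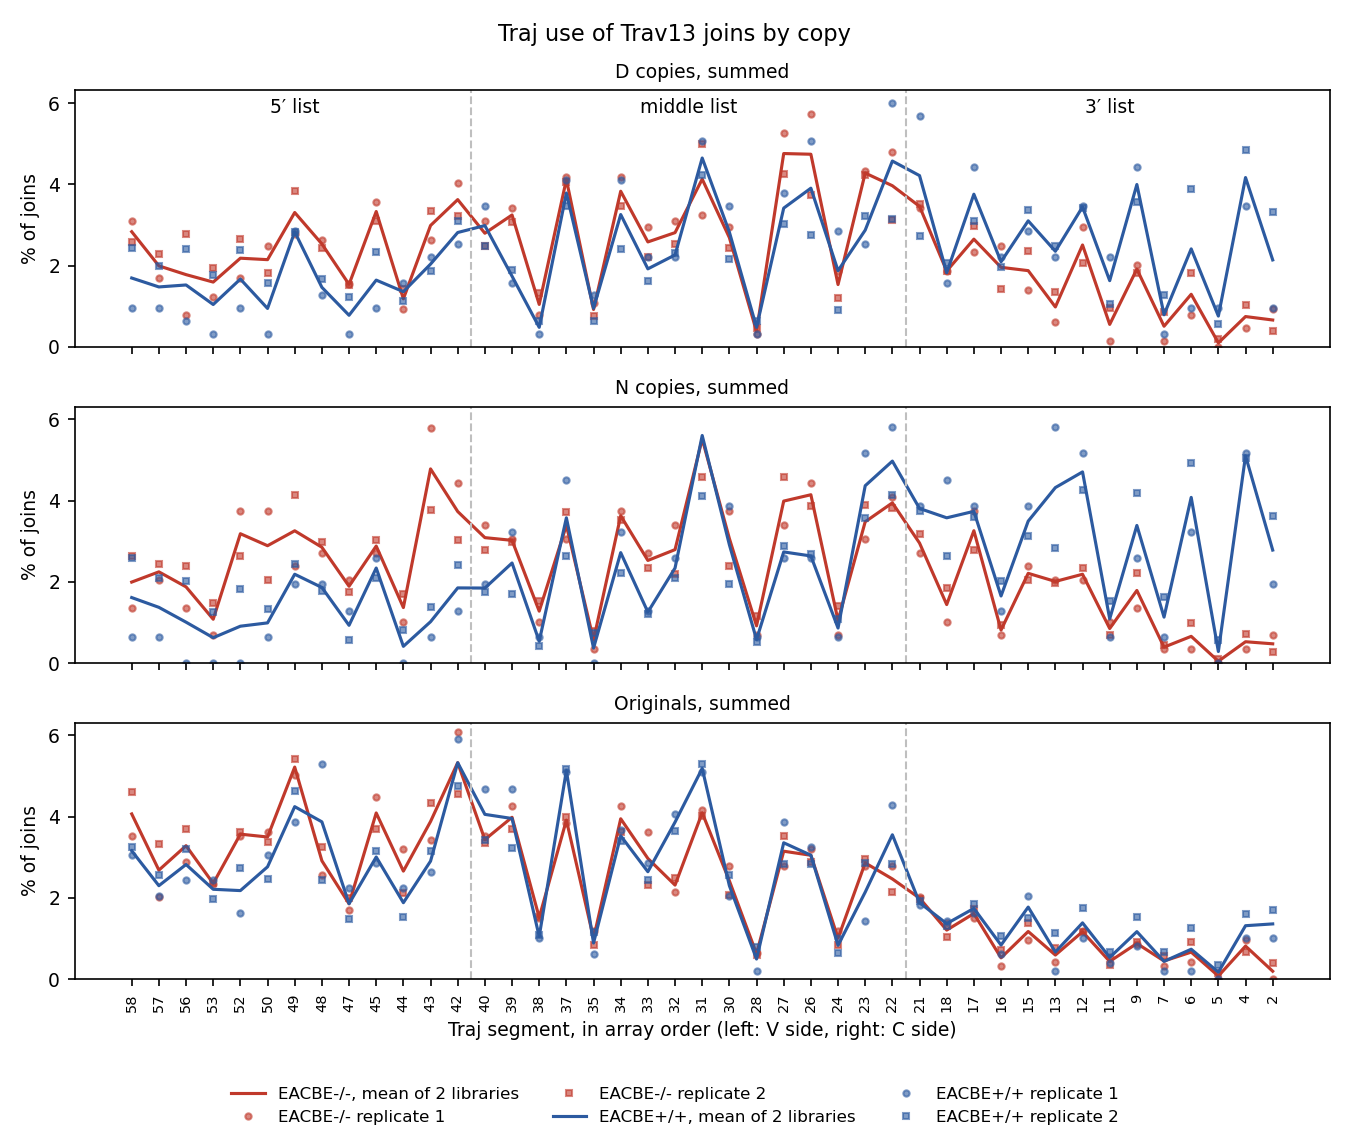
Share of Trav13 joins (percent, y axis) taken by each of the 43 Traj segments (x axis, in array order), for the D copies, N copies and originals in separate panels, with lines for the mean of 2 libraries and points for each library, EACBE-/- in red and EACBE+/+ in blue. In the 3′ list the EACBE-/- lines of the D and N copies lie mostly below the wild-type lines, and the whole list took 19.5% and 22.6% of D-copy joins in EACBE-/- against 35.8% and 37.7% in wild type.

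Within the family, the 3′ share differed by copy. Among D copies, the 3′ list took 19.5% (16.7 to 22.8%) and 22.6% (21.7 to 23.7%) of joins in EACBE-/- replicates 1 and 2 and 35.8% (30.7 to 41.2%) and 37.7% (36.6 to 38.7%) in wild type, a difference of -15.6 points. Among N copies it took 18.7% (14.7 to 23.6%) and 20.5% (19.2 to 21.9%) in EACBE-/- and 42.6% (35.1 to 50.5%) and 43.7% (42.1 to 45.3%) in wild type, a difference of -23.5 points, or 2.2-fold lower. The D and N copies had no overlap between genotypes, and the exact permutation p was 0.333 for each (n = 2 each). Among originals it took 10.9% (9.06 to 13.1%) and 12.7% (12.05 to 13.4%) in EACBE-/- and 12.4% (9.79 to 15.6%) and 18.4% (17.5 to 19.2%) in wild type, a difference of -3.59 points with overlapping libraries (exact permutation p = 0.667, n = 2 each). The originals were lower in EACBE-/- within each replicate number, and the overlap was between EACBE-/- replicate 2 and wild-type replicate 1.

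The gap in percentage points between the originals and the repeated copies was narrower in both EACBE-/- libraries than in both wild-type ones. A fall by the same fold in all copies would also narrow a gap in points, and the part of this was not tested. Log2 changes by copy are given below. The originals stood below the D copies in 3′ share, with an original-minus-D difference of -8.64 and -9.95 points in EACBE-/- replicates 1 and 2, against -23.3 and -19.3 points in wild type. The original-minus-N difference was -7.81 and -7.78 points in EACBE-/-, against -30.2 and -25.3 points in wild type. The originals were lower in 4 of 4 libraries in each case (two-sided exact sign-flip test, p = 0.125, the smallest possible). The original-minus-D difference was 12.03 points higher in EACBE-/- and the original-minus-N difference 19.95 points higher (exact permutation p = 0.333 for each, n = 2 each). The N-minus-D difference was -0.827 and -2.17 points in EACBE-/-, against 6.82 and 6.04 points in wild type, a genotype difference of -7.93 points (exact permutation p = 0.333, n = 2 each). The negative sign in EACBE-/- held for the summed copies only, whose subgroup make-up differs, since within each subgroup the N copy was above its D copy in both EACBE-/- libraries. Leaving out any 1 of the 4 libraries kept the sign of all 3 genotype differences, within 10.01 to 14.04 points for original minus D, 17.5 to 22.4 for original minus N and -8.60 to -7.26 for N minus D.

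The layout by copy recurred in the 5′ list. D copies joined it in 29.1% and 33.0% of counts in EACBE-/- replicates 1 and 2 and 15.8% and 26.8% in wild type, and N copies in 34.0% and 34.0% in EACBE-/- and 11.6% and 22.6% in wild type. Originals joined it in 44.4% and 46.4% in EACBE-/- and 39.7% and 37.4% in wild type. All 3 sets of copies were higher in both EACBE-/- libraries, and the mean difference was 9.76 points for D copies, 16.9 for N copies and 6.87 for originals (exact permutation p = 0.333 for each, n = 2 each).

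Member by member, the 3 segments of subgroup 1 moved in the same direction. Trav13d-1 joined the 3′ list in 14.5% and 17.0% of its counts in EACBE-/- and 25.6% and 35.7% in wild type. Trav13n-1 did so in 14.9% and 17.8% in EACBE-/- and 41.8% and 39.8% in wild type, a difference of -24.4 points. Trav13-1 did so in 11.1% and 13.2% in EACBE-/- and 16.1% and 18.7% in wild type, a difference of -5.28 points. None of these 3 overlapped between genotypes, and in EACBE-/- libraries the 3 copies lay within 11.1 to 17.8%.

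Subgroup 2 had the highest and some of the lowest 3′ shares. Trav13d-2 joined the 3′ list in 26.8% and 27.9% of its counts in EACBE-/-, against 43.9% and 41.1% in wild type, and Trav13n-2 in 31.1% and 31.4% in EACBE-/- and 44.4% and 53.3% in wild type. Neither overlapped, although Trav13n-2 had only 45 counts in EACBE-/- replicate 1 and 27 in wild-type replicate 1. Trav13-2 stood apart from its copies, at 10.8% and 10.8% in EACBE-/- and 7.56% and 12.3% in wild type, with overlap and a mean difference of 0.904 points. Its 5′ share was 38.7% and 47.4% in EACBE-/- and 50.4% and 46.5% in wild type, which overlapped as well.

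Subgroup 3 was the rarest. Trav13d-3 joined the 3′ list in 13.5% and 18.5% of its counts in EACBE-/- and 26.9% and 30.9% in wild type, without overlap but with an interval of 13.7 to 46.1% around the wild-type replicate 1 value, which rests on 26 counts. Trav13n-3 did so in 24.4% and 25.2% in EACBE-/- and 42.9% and 48.5% in wild type, without overlap. Trav13-3 did so in 9.23% and 12.8% in EACBE-/- and 4.41% and 27.2% in wild type, so that the wild-type libraries lay on both sides of the EACBE-/- ones. Its replicate 1 values rest on 6 of 65 counts in EACBE-/- and 3 of 68 in wild type. In each of the 3 subgroups the original was below its D copy and below its N copy in 4 of 4 libraries, and the N copy was above its D copy in 4 of 4 libraries, with exact sign-flip p = 0.125 for each of these 9 differences.

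**Figure D3:**
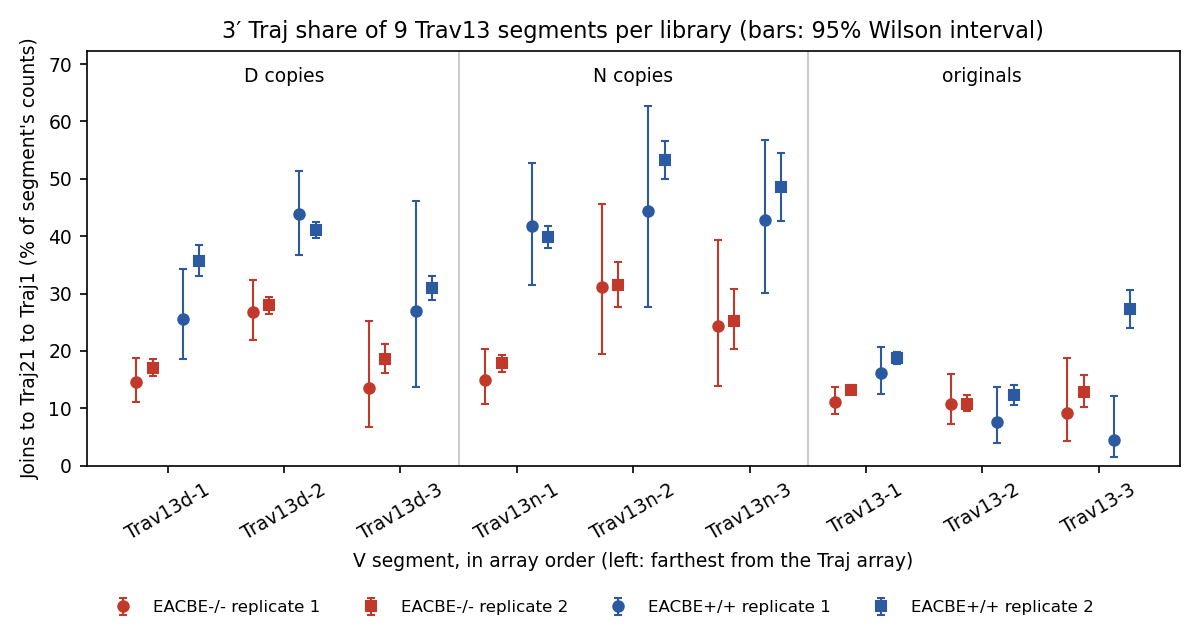
Share of each Trav13 segment's joins that used Traj21 to Traj1 (percent, y axis) by segment (x axis, in array order), with 1 point per library, EACBE-/- in red and EACBE+/+ in blue, and 95% Wilson intervals as bars. The red points of the D and N copies lie between 13.5% and 31.4%, and the blue points between 25.6% and 53.3%, while the originals overlap for Trav13-2 and Trav13-3.

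A fit across the array, added after the data were seen, tested the 3′ share of each Trav segment with its own total as the offset in edgeR. It called 36 of 103 segments, or 35.0%, all lower in EACBE-/-. Among the 9 Trav13 segments it called 4. The log2 change was -1.27 ± 0.34 for Trav13n-1 (SE, edgeR adjusted p = 0.00214), -0.996 ± 0.332 for Trav13d-1 (adjusted p = 0.0134) and -0.90 ± 0.30 for Trav13n-3 (adjusted p = 0.0134). Trav13-3 was called as well, with -0.83 (SE 0.30, adjusted p = 0.0245). However, its wild-type libraries lay on both sides of the EACBE-/- ones, the lower of them on 3 counts. The members that did not pass were Trav13d-3 at -0.79 (adjusted p = 0.0636), Trav13d-2 at -0.62 (adjusted p = 0.0636), Trav13n-2 at -0.71 (adjusted p = 0.0676), Trav13-1 at -0.53 (adjusted p = 0.120) and Trav13-2 at -0.04 (adjusted p = 0.881), whose mean share had differed in the other direction. Libraries did not overlap, and were lower in EACBE-/-, for 7 of the 9 members, near the 68.0% of all segments. The calls rest on all 4 libraries together. Leaving out EACBE-/- replicate 1, EACBE-/- replicate 2, wild-type replicate 1 or wild-type replicate 2 left 1, 4, 0 and 0 called segments in the array and 0 members each time. DESeq2 called 2 of the 9, Trav13n-1 and Trav13d-1.

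By copy, the median log2 change of the 3′ share was -0.79 for the 3 Trav13 D copies, -0.90 for the 3 N copies and -0.53 for the 3 originals. The other segments of the array gave -0.73 over 31 D copies and -0.88 over 22 N copies. The 41 other segments without a d or n letter gave -0.46, and some of these, such as Trav17 and Trav19, have no repeated copy. The family's copies followed the same order as these medians. The median over all 103 segments was -0.68, and over the 9 members -0.79. With copies summed, all 3 Trav13 subgroups were called lower, as were 76.1% of the 46 subgroups. Subgroup 1 fell by 0.82 (adjusted p = 0.00630), subgroup 3 by 0.76 (adjusted p = 0.00630) and subgroup 2 by 0.65 (adjusted p = 0.0324) on the log2 scale. Without EACBE-/- replicate 1, EACBE-/- replicate 2 or wild-type replicate 2, the array had 12, 7 and 0 called subgroups, none of them in Trav13. Without wild-type replicate 1 it had 35, with all 3 Trav13 subgroups among them.

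**Figure D4:**
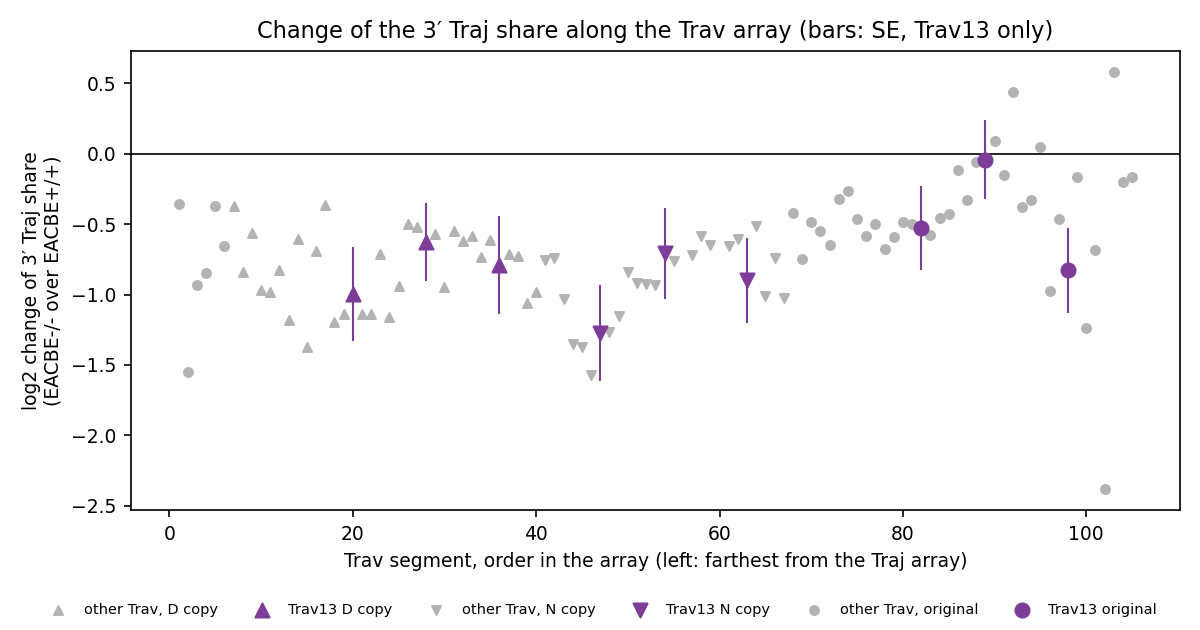
Log2 change of the 3′ Traj share (EACBE-/- over EACBE+/+, y axis) of 103 Trav segments by their order in the array (x axis). Trav13 members are in purple with standard errors and other segments in grey. Triangles mark D and N copies, and circles mark segments without a d or n letter, some of which have no repeated copy. The 9 members lie between -1.27 and -0.04, inside the spread of the other segments of their kind of copy.

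Pairs of one Trav with one Traj were tested across the array too. Of 2416 pairs tested by edgeR across the array, 79, or 3.27%, were called, 8 higher and 71 lower in EACBE-/-. Of 244 Trav13 pairs that passed the filter on low counts, 5 were called, all lower, where 2.94% of all pairs were called lower. All 5 joined an N or D copy to Traj4 or Traj2. Both are of the 3′ list, which 45 of the 71 lower pairs of the array used. In 3 of the 5, however, and in 55 of the 71 lower pairs of the array, both EACBE-/- libraries were under the filter's level of 0.0109% of a library. Such a pair entered the test through wild type alone and had to come out lower, so its counts are given with no test. The filter let through only 61 of the family's pairs with the 3′ list, against 97 with the middle list and 86 with the 5′ list, and the rarer members had few or none. The 5 called pairs were made by Trav13d-2, Trav13n-1 and Trav13n-2.

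Trav13d-2 with Traj4 had 1 and 42 counts in EACBE-/- replicates 1 and 2 and 8 and 239 in wild type (edgeR log2 change -2.51, SE 0.58, adjusted p = 0.00989), and as shares of the library its counts were lower in both EACBE-/- libraries. Trav13d-2 with Traj2 had 4 and 12 counts in EACBE-/- and 2 and 153 in wild type (-2.66, SE 0.72, adjusted p = 0.0334), and here the shares overlapped, since the call came from replicate 2. These were the only 2 of the 5 with an EACBE-/- library at the filter's level, which was replicate 2 for Traj4 and replicate 1 for Traj2. Wild type alone would have let these 2 pairs into the test, so their tests are not free of that filter. Of the other 3, Trav13n-1 with Traj4 had 1 and 15 counts in EACBE-/- and 3 and 108 in wild type. Trav13n-2 with Traj4 had 0 and 6 counts in EACBE-/-, against 3 and 53 in wild type. Trav13n-1 with Traj2 had 1 and 7 counts in EACBE-/-, against 2 and 75 in wild type. Leaving out EACBE-/- replicate 1, EACBE-/- replicate 2, wild-type replicate 1 or wild-type replicate 2 gave 46, 8, 150 and 0 called pairs in the array, of which 1, 1, 12 and 0 were Trav13 pairs. DESeq2 called 19 pairs in the array and 0 in Trav13.

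With copies summed, 268 of 1459 pairs were called, or 18.4%, made of 3.98% higher and 14.4% lower in EACBE-/-. Trav13 had 12 called of 125, with 8 lower and 4 higher. The 8 lower pairs all used the 3′ list, as did 134 of the 210 lower pairs of the array. Of the 8, 1 entered through wild type alone, as did 94 of the 210. That pair, subgroup 3 with Traj2, had 0 and 12 counts in EACBE-/-, against 3 and 105 in wild type, and its test is not given. Subgroup 2 with Traj2 had 5 and 20 counts in EACBE-/- and 3 and 209 in wild type (log2 change -2.68, adjusted p = 0.000284), and subgroup 1 with Traj2 had 3 and 41 in EACBE-/- and 5 and 206 in wild type (-2.10, adjusted p = 0.00110). Traj4 was called lower with all 3 subgroups, with log2 changes of -2.51 in subgroup 3 (adjusted p = 0.000767), -2.23 in subgroup 2 (adjusted p = 0.000362) and -1.47 in subgroup 1 (adjusted p = 0.0145). Subgroup 3 also fell with Traj6, by 1.93 (adjusted p = 0.0102), and with Traj12, by 1.75 (adjusted p = 0.0209), on the log2 scale. In EACBE-/- replicates 1 and 2, subgroup 3 had 1 and 20 counts with Traj4, 1 and 24 with Traj6 and 2 and 19 with Traj12. For each of these pairs, EACBE-/- replicate 1 was under the filter's level and both wild-type libraries were above it. Wild type alone would have let these pairs of subgroup 3 into the test, so their tests are not free of that filter.

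The 4 higher pairs all belonged to subgroup 1. With Traj52, of the 5′ list, subgroup 1 had 42 and 427 counts in EACBE-/- and 3 and 227 in wild type, a log2 change of 1.28 ± 0.40 (SE, edgeR adjusted p = 0.0229). With Traj38, of the middle list, it had 11 and 178 counts in EACBE-/- and 2 and 75 in wild type, a log2 change of 1.22 ± 0.44 (SE, edgeR adjusted p = 0.0447). Traj50 and Traj43, both of the 5′ list, were the other two, at 1.13 and 1.07. All 13 pairs of subgroup 1 with the 5′ list had a log2 change above 0, with a median of 0.94. In subgroup 2, 6 of 13 did, and in subgroup 3, 2 of 13. Over the 442 pairs of all subgroups with the 5′ list, the median was 0.21 and 33 were called higher. These pair values are shares of the whole library, so they carry the subgroup's own level as well as its Traj partners. Without EACBE-/- replicate 2 there were 68 called pairs in the array, 4 of them in Trav13, and without wild-type replicate 2 there were 0. DESeq2 called 31 pairs in the array and 1 in Trav13.

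The median Traj of each member, counting its joins from the 5′ end of the Traj array, was read in the deeper replicate 2. It was Traj37, Traj31 and Traj37 for Trav13d-1, Trav13d-2 and Trav13d-3 in EACBE-/-, against Traj30, Traj26 and Traj31 in wild type. For Trav13n-1, Trav13n-2 and Trav13n-3 it was Traj34, Traj28 and Traj31 in EACBE-/-, against Traj26, Traj21 and Traj22 in wild type. In replicate 2 the EACBE-/- median lay nearer the 5′ end for all 6 repeated copies, and in replicate 1 it did for 5 of them, with Traj32 in both genotypes for Trav13d-3. Among originals it was Traj39 in EACBE-/- and Traj34 in wild type for Trav13-1, Traj40 in both genotypes for Trav13-2, and Traj42 in EACBE-/- and Traj34 in wild type for Trav13-3. In replicate 1 the order was the other way for Trav13-2, at Traj38 in EACBE-/- and Traj42 in wild type, and for Trav13-3, at Traj42 in EACBE-/- and Traj45 in wild type.

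The Trav12 and Trav14 families are also repeated as subgroups 1 to 3 in D, N and original copies. They showed the same contrast between N copies and originals. Trav12 N copies joined the 3′ list in 19.7% and 26.2% of counts in EACBE-/-, against 38.8% and 57.0% in wild type, and Trav12 originals in 11.4% and 15.2% in EACBE-/- and 10.2% and 20.5% in wild type. Trav14 N copies did so in 14.01% and 17.3% in EACBE-/-, against 30.4% and 33.0% in wild type, and Trav14 originals in 8.63% and 9.70% in EACBE-/- and 7.66% and 13.005% in wild type. In each family the N copies did not overlap between genotypes and the originals did. The order of N and D copies seen in wild-type Trav13 did not recur in Trav14, whose N copies stood below its D copies in every library. In Trav12 that order varied between libraries. Against these families the difference in level had 1 sign in all 4 libraries for 3 of 6 sets of copies. Trav13 D copies were 4.00 points below those of Trav12 on the mean of the 4 libraries and lower in 4 of 4. Its N copies were 7.68 points and its originals 3.84 points above those of Trav14, higher in 4 of 4 (exact sign-flip p = 0.125 for each of these 3). The signs were mixed for the other 3, which were the Trav12 N copies, the Trav12 originals and the Trav14 D copies. For the 6 differences from the copies of Trav12 and Trav14, the exact permutation p of the genotype effect was 0.333 or higher (n = 2 each), the lowest value the design allows.

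The 5 subgroups whose Traj profile was closest to that of the Trav13 family, of 28 with at least 100 counts in every library, were Trav12-2, Trav14-1, Trav7-5, Trav16 and Trav14-3. The distance is the share of joins that would have to be moved to other Traj segments to make the profiles equal, and its mean over the 4 libraries was 11.0, 11.7, 12.3, 12.6 and 12.7 points. The farthest was Trav21 at 49.1 points. The distances were larger in replicate 1 than in replicate 2 for each of these 5 subgroups in both genotypes, and replicate 1 holds fewer counts. The part of depth in the distances was not tested.

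Within the wider Trav13 family, subgroup 4 has a D copy, an N copy and an original named Trav13-4-dv7, which can also serve as a delta-chain variable segment. Trav13d-4 joined the 3′ list in 10.1% and 19.9% of its counts in EACBE-/-, against 21.6% and 39.8% in wild type, and Trav13n-4 in 16.3% and 22.9% in EACBE-/- and 32.6% and 37.1% in wild type. Trav13-4-dv7 did so in 3.80% and 5.29% in EACBE-/- and 6.25% and 12.99% in wild type. It had a lower 3′ share than any of the 9 members in EACBE-/- libraries, and none of these 3 segments overlapped between genotypes.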

How the data were processed

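The series also holds Trb and Trd repertoire libraries and chromatin libraries. Trb, chromatin immunoprecipitation, 4C and Hi-C data were not analysed here. Per the labels' protocols, thymocyte RNA was copied by 5′ RACE with template switching. For Tcra, the authors deposited whole-number counts of V segments by 43 Traj segments, with 1 table a library. The unit counted and the segment caller are not given in any source used here. If counts are reads, amplification adds to the spread between libraries. Per the submitters' processing notes, tools were HiC-Pro 2.11.1, bedtools 2.26.0, Juicer 1.13.02, cutadapt 0.4.4 and Bowtie2 (versions 2.3.4.3 and 2.20.8) on mm10, and their steps are not named. All 105 Trav segments listed in all 4 libraries matched by symbol to RefSeq genes on GRCm38.p6, which is the assembly behind mm10. Segments listed in fewer libraries stayed in the totals and out of the tests.

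Counts were tested with edgeR 4.0.16 in R 4.3.3 (glmQLFit, glmQLFTest) over all segments or pairs, without TMM factors, scaled by the table totals, after filterByExpr at 10 and 15 counts. The Benjamini-Hochberg adjustment ran over each fit, with a threshold of 0.05. The 3′ share fit took the log of each segment's count as offset. Single values had exact permutation or sign-flip tests. Alternatives were DESeq2 1.42.0, limma 3.58.1 on logit shares, a replicate block, no filter, an array split at Traj32, each pair counted once and each library in turn left out. Each fit was tested on simulated counts, drawn once with the same spread for all features of a fit. The simulated libraries were independent, with no tie between same-numbered ones, so the rates hold for that setting only. Changes of 2-fold were recovered at 0% for segments, 20% for subgroups, 0% for pairs and 24.0% for pairs with copies summed. For 3′ shares it was 40%, and 60% with copies summed. Changes of 4-fold were recovered at 30%, 100%, 34.4%, 87.1%, 100% and 100% in the same order. False calls were 9.57% of the calls for pairs with copies summed and 0% in the other fits. All 9 members, the 5 top Traj partners, at most 10 called pairs per fit and the 5 most similar subgroups were to be named. The members and lists were chosen with earlier results of these data known. Traj50 and Traj43 fall outside that rule and were named after their values were seen, as were the Traj segments given singly.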

Additional observations from a re-analysis of the deposited data

Results flagged for a closer look

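Trav13 segments also appeared in the delta-chain (Trd) tables, which entered none of the comparisons above. The 9 members made up 2.59% (1222 of 47158 counts, 95% Wilson interval 2.45 to 2.74%) of the Trd library of EACBE-/- replicate 2 and 2.11% (593 of 28093, 1.95 to 2.29%) of that of wild-type replicate 2. In replicate 1 there was 1 such count among 5615 in EACBE-/-, for Trav13d-1, and none of the members was listed among 1744 counts in wild type. All 9 members were listed in replicate 2 of both genotypes. With 1 library per genotype that lists them, the difference between genotypes has no replicate check.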

How the results depend on the processing

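Counts over the array depended on the setting, and the cause was not tested. With the replicate block, 49 segments, 36 subgroups, 715 pairs, 687 pairs with copies summed and 88 3′ shares were called, of which 2, 3, 71, 56 and 8 were in Trav13. Same-numbered libraries deviated together (r = 0.88 over 105 segments), but 2 pairs of numbers do not establish pairing, so this hint comes from the data and not from the design. DESeq2 gave 19 pairs, 31 pairs with copies summed and 13 3′ shares. Without the filter 129 pairs were called, 7 of them in Trav13. Limma on logit shares gave 16 3′ shares and 20 with copies summed, and a split at Traj32 gave 56. Leaving out 1 library gave 2 to 4 called segments, 0 to 5 subgroups, 0 to 150 pairs, 0 to 332 pairs with copies summed, 0 to 4 3′ shares and 0 to 35 with copies summed. It moved the family's share difference between -0.224 and 1.99 points, and its 3′ share difference between -14.6 and -8.72 points. With each pair counted once, the difference from other Trav segments reversed to 1.78 points. Some log2 changes of use that were not called changed sign when 1 library was left out, and their ranges were -0.0032 to 0.48 for Trav13-2, -0.62 to 0.079 for Trav13d-2, -1.43 to 0.80 for Trav13d-3 and -0.81 to 0.14 for Trav13n-2 (sign changed without wild-type replicate 2), -0.057 to 0.86 for Trav13n-1 and -1.32 to 0.22 for Trav13n-3 (without wild-type replicate 1), and -0.38 to 0.055 for subgroup 2 (without EACBE-/- replicate 1 or wild-type replicate 2). The 3′ share change of Trav13-2 was 0.042 by DESeq2, 0.16 by limma, 0.096 with the split at Traj32 and -0.18 to 0.52 with 1 library left out. Replicate 1 depth limits the rare members, with 26 to 68 counts for Trav13d-3, Trav13n-2, Trav13n-3 and Trav13-3.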
